A study of Homo sapiens with 48 samples.

Results

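The genes described here are 39 human genes that carry a cell through the G1/S boundary of the cell cycle or copy its DNA. They fall by role into 10 origin licensing genes, 6 origin firing genes, 8 regulators of the G1/S step, 11 genes of the replication fork and its polymerases, 3 genes of nucleotide supply, and UHRF1. Each gene was read from the probe sets whose sole annotated symbol is that gene, and where several existed the brightest over all arrays was taken. All 39 had such a probe set, out of 19775 genes that had any. All 39 also lay among the 11865 genes bright enough to be tested. The list was chosen with earlier results of these data known, so it is not independent of these arrays.

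The study profiled BEAS-2B, an established human bronchial epithelial cell line, on Affymetrix U133 Plus 2.0 arrays. Confluent cells received GS-5759 at 10 nM, or Ind/GSK, or vehicle. GS-5759 is a bifunctional molecule that activates the β2-adrenoceptor and inhibits the cAMP-degrading enzyme PDE4. Ind/GSK is the β2-adrenoceptor agonist indacaterol given together with the PDE4 inhibitor GSK 256066, both at 10 nM. RNA was taken after 1, 2, 6 and 18 h, which gives 12 groups of 4 arrays and 48 arrays in all. Every group, vehicle included, had been grown in serum-free keratinocyte medium with epidermal growth factor and pituitary extract, and then for 24 h in the medium with no supplement named. The labels number the replicates 1 to 4 in each group and do not say that they were separate cultures. The p-values therefore reflect only how far these samples differ from each other.

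Before a cell copies its DNA, the origin recognition complex, CDC6 and CDT1 load rings of the MCM helicase onto origins. Cyclin-dependent and CDC7 kinases then fire these origins by joining CDC45 and the GINS complex to the ring. E2F transcription factors, held in check by the retinoblastoma protein until cyclin D and cyclin E kinases act on it, switch on most genes of the pathway late in G1. The second messenger cAMP, which both treatments raise, is known to slow or speed the cycle depending on the cell type.

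Because these genes share E2F control as textbook background, the promoter windows of 5 members were read from RefSeq on GRCh38.p14. A window runs from 250 bases before to 50 bases after the transcription start and is written 5′ to 3′ in the direction of the gene. Capitals mark every match to any of the E2F letters TTTCCCGC, TTTGGCGC, TTTCGCGC, TTTGGCGG or TTTCCCGG on either strand, and matches may overlap. MCM6, MCM2 and CDC6 stand for licensing, E2F1 for G1/S control, and CDC7 for the member that moved the other way.
MCM6, chr2:135876394-135876693, minus strand: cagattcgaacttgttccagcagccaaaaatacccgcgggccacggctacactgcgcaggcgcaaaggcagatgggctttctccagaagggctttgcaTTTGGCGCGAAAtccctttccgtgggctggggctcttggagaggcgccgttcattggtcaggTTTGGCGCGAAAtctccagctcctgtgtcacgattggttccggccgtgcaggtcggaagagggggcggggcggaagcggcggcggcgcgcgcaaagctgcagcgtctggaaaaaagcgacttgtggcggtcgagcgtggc
MCM2, chr3:127598161-127598460, plus strand: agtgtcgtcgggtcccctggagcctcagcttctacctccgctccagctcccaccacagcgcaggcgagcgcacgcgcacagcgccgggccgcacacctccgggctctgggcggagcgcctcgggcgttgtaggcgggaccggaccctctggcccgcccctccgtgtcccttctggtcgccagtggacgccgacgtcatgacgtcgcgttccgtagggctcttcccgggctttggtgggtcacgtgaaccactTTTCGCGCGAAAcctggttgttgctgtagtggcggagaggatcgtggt
CDC6, chr17:40287629-40287928, plus strand: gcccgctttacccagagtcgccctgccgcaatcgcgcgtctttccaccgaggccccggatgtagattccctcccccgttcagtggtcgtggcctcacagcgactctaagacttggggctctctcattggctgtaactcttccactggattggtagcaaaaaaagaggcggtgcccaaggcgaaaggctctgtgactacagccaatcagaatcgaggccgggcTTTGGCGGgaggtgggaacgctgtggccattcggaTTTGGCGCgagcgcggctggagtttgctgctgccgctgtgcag
E2F1, chr20:33686336-33686635, minus strand: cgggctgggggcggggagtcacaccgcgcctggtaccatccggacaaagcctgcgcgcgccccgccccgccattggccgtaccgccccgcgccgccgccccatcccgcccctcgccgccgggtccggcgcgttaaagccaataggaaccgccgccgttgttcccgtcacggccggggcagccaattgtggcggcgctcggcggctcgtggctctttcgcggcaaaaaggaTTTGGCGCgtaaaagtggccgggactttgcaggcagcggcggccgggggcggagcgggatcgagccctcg
CDC7, chr1:91500862-91501161, plus strand: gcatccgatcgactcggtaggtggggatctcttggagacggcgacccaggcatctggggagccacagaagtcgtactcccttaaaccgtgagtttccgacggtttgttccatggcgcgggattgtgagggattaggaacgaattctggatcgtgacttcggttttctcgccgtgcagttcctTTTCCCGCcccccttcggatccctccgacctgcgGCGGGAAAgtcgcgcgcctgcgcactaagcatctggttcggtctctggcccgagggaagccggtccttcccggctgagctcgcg
The MCM6 window held 4 matches in 2 overlapping runs, and the MCM2 window held 2 in a single run near the start. CDC6 held 2 separate matches, E2F1 held 1, and CDC7 held 2 in the later of its 2 windows. Of the 33 members with a window in the table, 23 had at least 1 E2F match, which is 69.7% of them against 5.76% of all 27305 genes with a window. Among the 17 members that were lower at 18 h than at 6 h under every treatment, 15 had a window and 13 of these had a match. Among the 14 that were lower under no treatment, 12 had a window and 7 had a match, CDC7 and TYMS included. The CCAAT letters read by NF-Y were in 57.6% of member genes and 39.7% of all genes, and the TGACGTCA letters of a cAMP response element were in 6.06% and 2.25%. A match is a description of these letters, not a bound site. The windows of MCM5, MCM4, CCND1, CCNE2, CDK2 and RPA2 were not in the table.

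Array medians over all probe sets lay between 7.0 and 7.17 on the log2(signal + 16) scale, and pairs of arrays correlated at 0.968 to 0.997. These medians lie below the level for testing. The 75th percentile of signal varied more, from 519 to 613. Its group mean was 547 in Ind/GSK at 1 h and 596 in vehicle at 1 h. As a check of treatment, 7 cAMP target genes were listed, with earlier results of these data known, so the check is not independent. The 6 bright enough were tested against vehicle. With GS-5759, 4, 6, 1 and 0 of them were called higher at 1, 2, 6 and 18 h, and with Ind/GSK 4, 6, 3 and 0. Their median log2 differences were 2.02, 2.31, 1.08 and 0.29 with GS-5759 and 1.86, 2.26, 1.3 and 0.43 with Ind/GSK. The epithelial keratins KRT8 and KRT18 were bright on every array, at signals of 3112 to 6970 and 5313 to 9218, while the median signal of EPCAM was 81.1, below the level for testing. Of 8 fibroblast genes 3 passed the filter (COL1A1, PDGFRB and THY1). The rest did not: COL1A2, COL3A1, DCN, LUM and PDGFRA had median signals of 137, 86.7, 129, 79.6 and 78.6. The summed signal of the list was 8919 to 15566, and that of COL1A1 alone was 6459 to 10984. In the leukocyte list 1 of 8 passed (LYZ) and in the endothelial list 1 of 6 (PECAM1), with PTPRC at no more than 41.9 and CDH5 at no more than 20.8. Replicate 3 stood apart from the others in all 12 groups. The basal keratin KRT5 had signals of 29513 to 36309 in its 12 arrays, against at most 277 in the other 36, and KRT19 had at least 2296 there against at most 118. Since replicate 3 is in every group, results are given with it, and counts of changed members also without it.

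**Figure D1:**
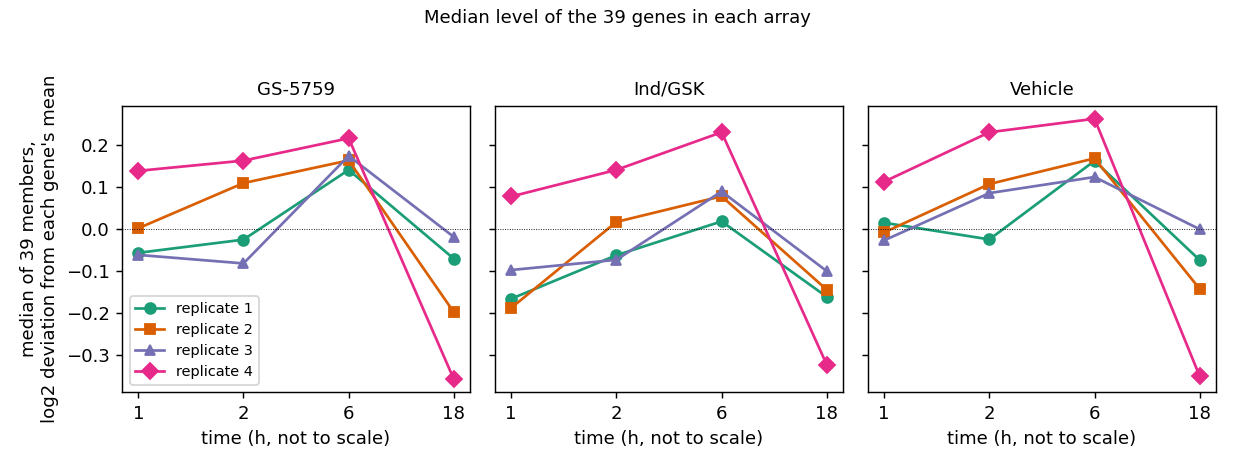
The vertical axis is the median, over the 39 genes, of each gene's log2 deviation from its own mean over 48 arrays, and the horizontal axis is time in hours at even spacing. Each panel is a treatment and each line a replicate number. In all 3 panels the 18 h point is below the 6 h point for every replicate, and replicate 4 drops farthest.

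As a set, these genes stood highest at 6 h whatever the cells had received, and over all arrays they stood lowest at 18 h. The set was summarised on each array by the median deviation of the 39 members from their own means, on the log2 scale. At 1 h the 12 arrays ranged from -0.19 to 0.14 with a median of -0.02, and at 2 h from -0.08 to 0.23 with a median of 0.05. At 6 h they ranged from 0.02 to 0.26 with a median of 0.16. At 18 h they ranged from -0.36 to -8.25e-05 with a median of -0.14, so that the 6 h and 18 h arrays did not overlap. The 1 h and 18 h arrays did overlap. With Ind/GSK, replicates 1 and 2 read -0.166 and -0.188 at 1 h, below their -0.161 and -0.144 at 18 h. The highest of the 12 group means was GS-5759 at 6 h for 12 members, Ind/GSK at 6 h for 1 and vehicle at 6 h for 15. It was vehicle at 18 h for 3 members and GS-5759 at 18 h for 1. The lowest was Ind/GSK at 18 h for 22 members, Ind/GSK at 1 h for 8 and vehicle at 18 h for 5.

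The comparison of 18 h with 6 h was made within each treatment, with limma across all 11865 genes and a Benjamini-Hochberg adjusted p under 0.05 as the call. With GS-5759, 23 members fell and 0 rose, where 5.84% of all tested genes were called lower and 11.3% higher. With Ind/GSK, 21 fell and 1 rose, where 5.79% were called lower and 16.5% higher. With vehicle alone, 20 fell and 1 rose, where 4.36% were called lower and 9.79% higher. The median member differed by -0.32 with GS-5759, -0.34 with Ind/GSK and -0.36 with vehicle on the log2 scale, beside medians over all genes of 0.03, 0.05 and 0.03. The 4 arrays at 18 h lay wholly below the 4 at 6 h for 21 members with GS-5759, 22 with Ind/GSK and 20 with vehicle, where this held for 6.34%, 5.05% and 5.27% of genes. Each of the 23, 22 and 21 called members moved the same way in 4 of 4 same-numbered replicates. With the replicate number as a block, 26 fell and 3 rose with GS-5759, 23 and 2 with Ind/GSK, and 28 and 1 with vehicle. That fit called 13.1%, 12.5% and 11.0% of all genes lower and 23.8%, 30.0% and 23.3% higher.

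In all, 17 members fell under every treatment: MCM2 to MCM7, MCM10, CDC6, GINS2, GINS3, ORC1, E2F1, E2F2, CCNE1, PCNA, RFC3 and UHRF1. A further 8 fell under at least 1, which makes 25, and 14 fell under none. Of all tested genes, 4.36% were called lower in vehicle, so no larger share can have fallen under every treatment. The exact share, and the share that fell under at least 1, were not counted. By role, the fall under all 3 treatments covered 8 of 10 licensing genes, 3 of 6 firing genes, 3 of 8 G1/S regulators, 2 of 11 fork genes, 0 of 3 nucleotide genes and UHRF1. In a bulk sample, fewer cells in S phase and less of each transcript per cell cannot be told apart. Of the 8 epithelial markers 5 were tested, and 2 of these, KRT8 and KRT18, were also called lower at 18 h under each treatment (3 with the block). KRT18 differed by -0.54 with GS-5759, -0.43 with Ind/GSK and -0.49 with vehicle. The summed signal of the list in vehicle was 9109 to 54125 at 18 h and 13954 to 61085 at 6 h. Much of the upper ends is KRT5 in replicate 3, which had 29513 to 36309 over its 12 arrays, so these ranges mix replicate with time. The part of these markers in the result was not tested. No tested fibroblast, leukocyte or endothelial marker was called between these times without the block. The 3′ minus 5′ difference of the GAPDH control probe sets overlapped between the times, at -0.20 to -0.08 over the treated and vehicle groups at 18 h and -0.22 to -0.12 at 6 h.

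**Figure D2:**
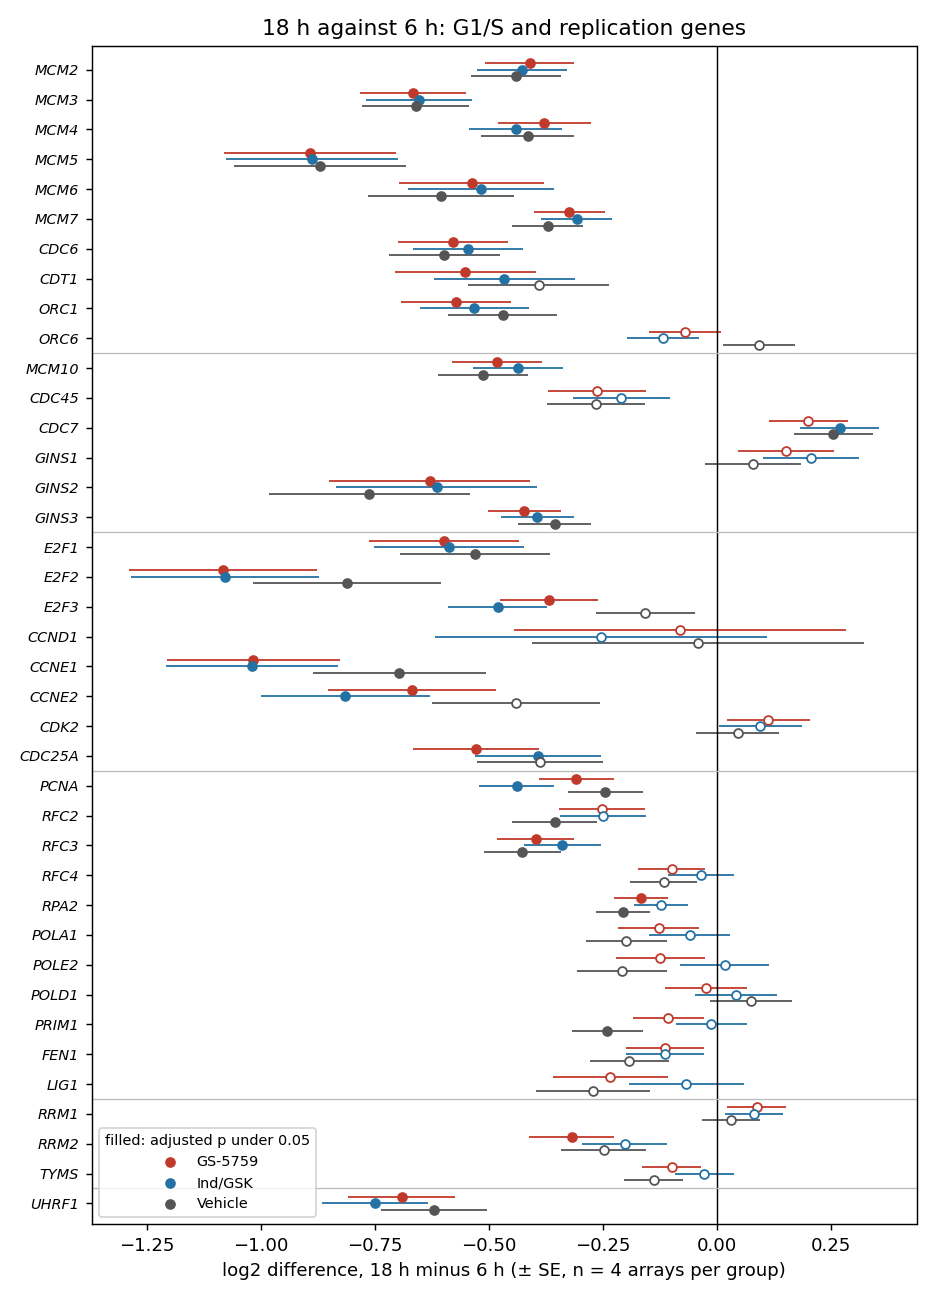
Each row is a gene, grouped by role, and the horizontal axis is the log2 difference of 18 h minus 6 h with its SE (n = 4 arrays a group). Filled points passed an adjusted p of 0.05. The licensing genes other than ORC6 lie left of -0.30 for all 3 treatments, E2F2, CCNE1 and MCM5 reach farthest left, and CDC7 lies right of 0.

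Among the licensing genes, 9 of 10 fell with GS-5759, 9 with Ind/GSK and 8 with vehicle. MCM5, a subunit of the MCM helicase ring, had the largest change of them. Its signals at 18 h were 3212, 2338, 3890 and 1692 with GS-5759 (replicates 1 to 4), against 4840, 4499, 5754 and 4747 at 6 h. With Ind/GSK the 18 h arrays read 3102, 2449, 3069 and 1790, against 4729, 4240, 5209 and 4740 at 6 h. Vehicle arrays gave 3150, 2661, 3805 and 1841 at 18 h, against 5018, 4691, 5741 and 4909 at 6 h. No 18 h array reached any 6 h array, and replicate 4 was the lowest at 18 h under each treatment. The log2 difference was -0.89 ± 0.19 (SE) with GS-5759 (adjusted p = 0.000613), -0.89 with Ind/GSK (adjusted p = 0.000486) and -0.87 with vehicle (adjusted p = 0.00127).

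MCM2, another ring subunit, changed by a smaller amount. Its signals at 18 h were 5363, 4810, 5485 and 4111 with GS-5759, against 6521, 6273, 6699 and 6656 at 6 h. Vehicle arrays read 5478, 5456, 5748 and 4060 at 18 h, against 6665, 7222, 7376 and 6698 at 6 h. The times did not overlap in either. MCM2 differed by -0.41 ± 0.10 with GS-5759, -0.43 with Ind/GSK and -0.44 with vehicle (limma, adjusted p = 0.00228, 0.00118 and 0.0017). The remaining ring subunits kept the same order in every treatment: MCM3 had the larger difference, -0.67 with GS-5759, -0.65 with Ind/GSK and -0.66 with vehicle, and MCM7 the smaller, -0.32, -0.31 and -0.37. MCM4 and MCM6 lay between them, at -0.38 to -0.44 and -0.52 to -0.61.

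The loading factors fell with the ring. CDC6, the ATPase that loads it, had 2410, 2165, 2146 and 1753 at 18 h with GS-5759, against 3127, 3188, 2922 and 3391 at 6 h. With Ind/GSK it had 2224, 2132, 1855 and 1792 at 18 h, against 2911, 2986, 2596 and 3207 at 6 h. In vehicle it had 2411, 2449, 2163 and 1897 at 18 h, against 3411, 3379, 3039 and 3663 at 6 h. Each 18 h array lay below each 6 h array, a difference of -0.58 ± 0.12 with GS-5759, -0.55 with Ind/GSK and -0.60 with vehicle (adjusted p = 0.000542, 0.000803 and 0.000601). CDT1, the partner of CDC6 that brings in the ring, was called with GS-5759 (-0.55 ± 0.15, adjusted p = 0.00948) and Ind/GSK (-0.47, adjusted p = 0.0256). In vehicle CDT1 differed by -0.39 (adjusted p = 0.087, or 0.0077 with the replicate number as a block). ORC1, the origin recognition subunit whose level follows the cycle, differed by -0.57, -0.53 and -0.47 under GS-5759, Ind/GSK and vehicle. ORC6, another subunit of that complex, was not called, with differences of -0.07, -0.12 and 0.09.

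**Figure D3:**
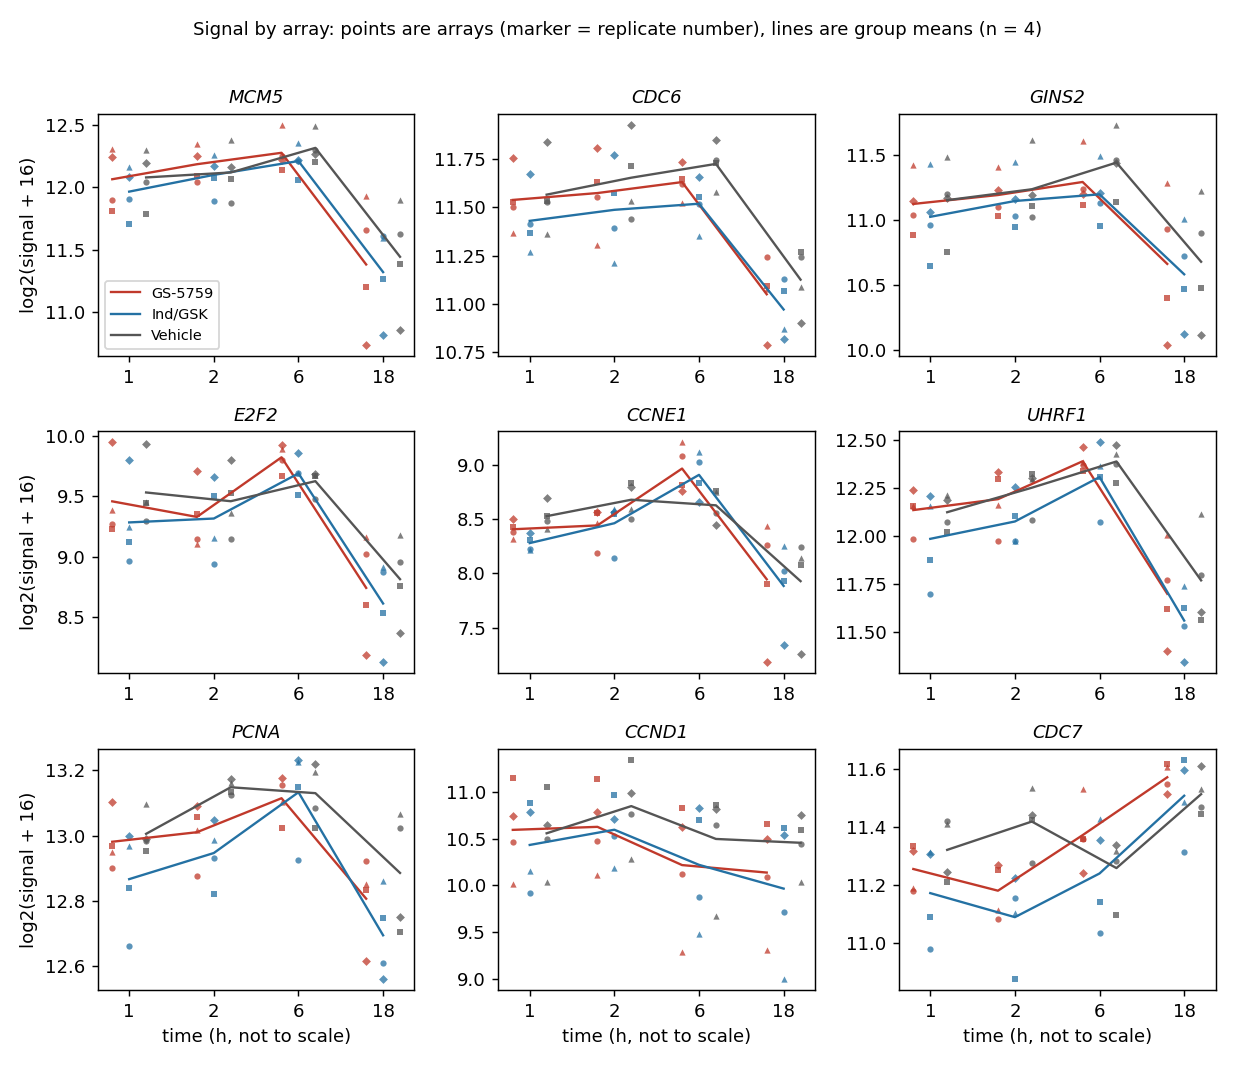
Each panel is a gene, the vertical axis is log2(signal + 16) and the horizontal axis is time in hours at even spacing. Points are arrays, with circles, squares, triangles and diamonds for replicates 1 to 4, and lines join group means (n = 4). MCM5, CDC6, E2F2, CCNE1 and UHRF1 are lower at 18 h than at 6 h in each treatment with no overlap, CCND1 is spread widely by replicate, and CDC7 is higher at 18 h.

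The firing genes split. MCM10, GINS2 and GINS3 fell in every treatment, CDC45 and GINS1 were not called, and CDC7 went the other way. GINS2, a subunit of the GINS complex, had 1933, 1330, 2469 and 1034 at 18 h with GS-5759, against 2402, 2200, 3102 and 2337 at 6 h. In vehicle it had 1894, 1407, 2368 and 1091 at 18 h, against 2805, 2234, 3371 and 2748 at 6 h. The times overlapped because replicate 3 was high at both, yet each replicate was lower at 18 h than its own 6 h array. GINS2 differed by -0.63 ± 0.22 with GS-5759 (adjusted p = 0.0417), -0.61 with Ind/GSK (adjusted p = 0.0396) and -0.76 with vehicle (adjusted p = 0.0147). MCM10, which helps the loaded helicase to start, differed by -0.48, -0.44 and -0.51, and GINS3 by -0.42, -0.39 and -0.36. CDC45, the helicase partner of GINS, differed by -0.26 with GS-5759, -0.21 with Ind/GSK and -0.26 with vehicle. The adjusted p of CDC45 was 0.0907, 0.172 and 0.0963, and with the block 0.0404, 0.0967 and 0.0417.

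CDC7, the kinase that fires licensed origins, was the only member that rose between these times in a called comparison. Its signals at 18 h were 2531, 3162, 2857 and 3083 with Ind/GSK, against 2081, 2243, 2742 and 2602 at 6 h. Vehicle arrays read 2817, 2771, 2945 and 3113 at 18 h, against 2474, 2173, 2536 and 2573 at 6 h. With GS-5759 they read 2981, 3130, 3105 and 2908 at 18 h, against 2608, 2613, 2945 and 2402 at 6 h. The times stood apart in vehicle and overlapped in both treatments. CDC7 differed by 0.27 ± 0.09 with Ind/GSK (adjusted p = 0.0211), 0.26 with vehicle (adjusted p = 0.0409) and 0.20 with GS-5759 (adjusted p = 0.115, or 0.0386 with the block). GINS1 was not called in the fit without the block, at 0.15, 0.21 and 0.08 for GS-5759, Ind/GSK and vehicle, and was called higher with it for GS-5759 (adjusted p = 0.0167) and Ind/GSK (adjusted p = 0.00109).

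The G1/S regulators held the largest falls of the set with GS-5759 and with Ind/GSK. E2F2, an activating E2F factor, had 504, 371, 556 and 275 at 18 h with GS-5759, against 878, 797, 937 and 959 at 6 h. With Ind/GSK it had 453, 355, 466 and 263 at 18 h, against 813, 716, 810 and 914 at 6 h. Vehicle arrays gave 480, 416, 563 and 314 at 18 h, against 696, 798, 804 and 805 at 6 h. All 18 h arrays were below all 6 h arrays of their treatment. E2F2 differed by -1.08 ± 0.21 with GS-5759, -1.08 with Ind/GSK and -0.81 with vehicle (adjusted p = 0.000168, 0.000132 and 0.00553).

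CCNE1, the cyclin E1 that activates CDK2, fell alongside it. Signals at 18 h with GS-5759 were 291, 223, 331 and 130, against 524, 433, 573 and 418 at 6 h. Under Ind/GSK they were 244, 227, 289 and 146 at 18 h, against 504, 438, 538 and 388 at 6 h. Vehicle arrays had 286, 254, 266 and 137 at 18 h, against 360, 416, 415 and 332 at 6 h. The times did not overlap in any treatment. CCNE1 differed by -1.02 ± 0.19 with GS-5759 (adjusted p = 0.000122), -1.02 with Ind/GSK (adjusted p = 8.62e-05) and -0.70 with vehicle (adjusted p = 0.00935). E2F1, the founding E2F factor, had 1133, 839, 1103 and 723 at 18 h with GS-5759, against 1435, 1443, 1265 and 1560 at 6 h. In vehicle E2F1 had 1080, 982, 1028 and 739 at 18 h, against 1359, 1466, 1198 and 1501 at 6 h. E2F1 differed by -0.60 ± 0.17 with GS-5759, -0.59 with Ind/GSK and -0.53 with vehicle (adjusted p = 0.00819, 0.00782 and 0.0243), again without overlap.

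E2F3, CCNE2 and CDC25A were called with GS-5759 and with Ind/GSK and not in vehicle. E2F3 differed by -0.37 ± 0.11 with GS-5759 (adjusted p = 0.0133), -0.48 with Ind/GSK (adjusted p = 0.000918) and -0.16 with vehicle (adjusted p = 0.389). CCNE2, the other E-type cyclin, differed by -0.67 ± 0.19, -0.81 and -0.44 (adjusted p = 0.00842, 0.00102 and 0.11, the last 0.0336 with the block). CDC25A, the phosphatase that frees CDK2 from its inhibitory phosphates, differed by -0.53 ± 0.14, -0.39 and -0.39 (adjusted p = 0.00508, 0.0353 and 0.0526, the last 0.00297 with the block). The difference between treated and vehicle cells in this change was itself tested, as the mean response of both treatments at 18 h minus that at 6 h. It was -0.27 ± 0.13 for E2F3 (adjusted p = 0.559), -0.30 ± 0.23 for CCNE2 (adjusted p = 0.847) and -0.07 ± 0.17 for CDC25A (adjusted p = 1). Of the 39 members 0 passed in limma, where 0.556% of all genes were called, and 0 had an unadjusted p under 0.05, against 8.97% of all genes. CCNE1 had the largest estimate, -0.32 ± 0.23 (adjusted p = 0.823), with a 95% interval of -0.79 to 0.15.

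CCND1, cyclin D1, which answers to growth factors, was not called between these times. With GS-5759 its signals were 1069, 1602, 614 and 1432 at 18 h, against 1100, 1803, 609 and 1561 at 6 h. In vehicle they were 1375, 1528, 1029 and 1714 at 18 h, against 1581, 1837, 800 and 1787 at 6 h. Replicate 3 was the lowest in all 4 of these groups, and replicates differed more than times did. CCND1 differed by -0.08 ± 0.36 with GS-5759, -0.25 with Ind/GSK and -0.04 with vehicle (adjusted p = 0.94, 0.704 and 0.967). CDK2, the kinase partner of cyclin E, was also not called, at 0.11 ± 0.09, 0.10 and 0.05, although GS-5759 passed with the block (adjusted p = 0.0365).

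At the fork, PCNA and RFC3 fell in every treatment and most polymerase genes were not called. PCNA, the sliding clamp, had 7745, 7287, 7378 and 6262 at 18 h with GS-5759, against 9110, 8314, 8781 and 9235 at 6 h. With Ind/GSK it had 6235, 6860, 7414 and 6018 at 18 h, against 7755, 9072, 9556 and 9613 at 6 h. In vehicle it had 8312, 6650, 8559 and 6866 at 18 h, against 8673, 8308, 9356 and 9514 at 6 h. The times stood apart in both treated sets and overlapped in vehicle, where replicates 1 and 3 were the higher at 18 h. PCNA differed by -0.31 ± 0.08 with GS-5759 (adjusted p = 0.00589), -0.44 with Ind/GSK (adjusted p = 9.33e-05) and -0.24 with vehicle (adjusted p = 0.0378). RFC3, a subunit of the clamp loader, had 3884, 3415, 4343 and 3222 at 18 h with GS-5759, against 4861, 4814, 4668 and 5143 at 6 h. RFC3 differed by -0.40 ± 0.08, -0.34 and -0.43 under GS-5759, Ind/GSK and vehicle (limma, adjusted p = 0.000658, 0.00273 and 0.000476).

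A further 3 fork genes were called under at least 1 treatment. RFC2, another clamp loader subunit, was called in vehicle (-0.36 ± 0.09, adjusted p = 0.00756), and at -0.25 it missed with GS-5759 (adjusted p = 0.0601) and Ind/GSK (adjusted p = 0.0511), both called with the block (adjusted p = 0.0211 and 0.0193). RPA2, which coats single-stranded DNA, was called with GS-5759 (-0.17 ± 0.06, adjusted p = 0.0464) and vehicle (-0.21, adjusted p = 0.0135). PRIM1, the primase subunit that starts new strands, was called in vehicle (-0.24 ± 0.08, adjusted p = 0.0319). RPA2 was not called with Ind/GSK, and PRIM1 was not called with GS-5759 or Ind/GSK. For none of RFC2, RPA2 and PRIM1 was the difference between treated and vehicle cells in this change called. The other 6 were not called: RFC4, POLA1, POLE2, POLD1, FEN1 and LIG1 ranged from -0.27 for LIG1 in vehicle to 0.07 for POLD1 in vehicle. POLA1, POLE2 and POLD1 encode subunits of the replicative polymerases, and FEN1 and LIG1 finish the lagging strand. The block called FEN1 (adjusted p = 0.0241) and POLE2 (adjusted p = 0.0444) in vehicle, and LIG1 in vehicle (adjusted p = 0.0186) and with GS-5759 (adjusted p = 0.0408), all lower.

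Of the nucleotide supply genes, RRM2 was called with GS-5759 alone. RRM2, the cycle-regulated subunit of ribonucleotide reductase, differed by -0.32 ± 0.09 with GS-5759 (adjusted p = 0.0131), -0.20 with Ind/GSK (adjusted p = 0.123) and -0.25 with vehicle (adjusted p = 0.0692). With the block the adjusted p of RRM2 was 0.0301 for Ind/GSK and 0.0104 for vehicle, and its treatment difference in this change was -0.01 ± 0.11. RRM1, the larger subunit, differed by 0.09, 0.08 and 0.03. TYMS, the thymidylate synthase, had 10904, 9613, 10031 and 8755 at 18 h with GS-5759, against 10544, 10336, 10177 and 10935 at 6 h, with the times overlapping. TYMS differed by -0.10, -0.03 and -0.14 and was not called in any treatment.

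UHRF1, which reads half-methylated DNA behind the fork and recruits DNMT1, had the smallest adjusted p of the set with GS-5759 and with Ind/GSK. It had 3477, 3122, 4090 and 2684 at 18 h with GS-5759, against 5266, 5169, 5335 and 5630 at 6 h. With Ind/GSK it had 2939, 3140, 3393 and 2577 at 18 h, against 4284, 5043, 5254 and 5726 at 6 h. In vehicle it had 3541, 3000, 4414 and 3087 at 18 h, against 5303, 4941, 5493 and 5664 at 6 h. There was no overlap in any treatment. UHRF1 differed by -0.69 ± 0.12 with GS-5759 (adjusted p = 2.84e-05), -0.75 with Ind/GSK (adjusted p = 5.51e-06) and -0.62 with vehicle (adjusted p = 0.000239).

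The size of the fall differed between replicate numbers. In replicate 4 the median member differed by -0.62 with GS-5759, -0.56 with Ind/GSK and -0.63 with vehicle between 18 and 6 h, and 37 of 39 members were lower in each. More than 2-fold lower there were 9 members with GS-5759, 9 with Ind/GSK and 6 with vehicle. In replicates 1 to 3 the medians ran from -0.34 to -0.13 and at most 1 member was more than 2-fold lower. Without replicate 4 in any group, 14 members were called lower with GS-5759, 16 with Ind/GSK and 14 with vehicle. Without replicate 2 the counts were 15, 17 and 11. Without replicate 3, the keratin-rich samples, they were 22, 22 and 23, and with Ind/GSK 1 member rose. Leaving out the 18 h array of replicate 4 alone left 15 called with GS-5759 and 12 with vehicle. The shares of all genes called in these smaller fits are not given, so a lower count is not a result about the members alone.

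Most members with several probe sets gave the same direction in the others. For the 25 members that fell in any treatment, the same sign was seen in 23 of 26 other probe sets with GS-5759, 24 of 26 with Ind/GSK and 24 of 26 with vehicle. The exceptions in all 3 were a probe set of MCM4 (0.35, 0.26 and 0.29) and a probe set of RFC3 (0.10, 0.14 and 0.06). With GS-5759 the other probe set of CCNE1 also went the opposite way, so the fall of CCNE1 there rests on its brightest probe set. Over the 48 arrays, the 741 pairs of members had a median correlation of 0.52, and of 0.50 after the group means were taken out. These arrays share replicate numbers, treatments and array processing, so the correlation is a description.

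Earlier in the vehicle time course the median member was slightly higher at each later time. At 2 h against 1 h it differed by 0.07, beside -0.06 over all genes, and 30 of 39 members were positive. At 6 h against 2 h it differed by 0.09, beside 0.01 over all genes, and 28 of 39 were positive. Between 1 and 2 h, 0 members were called in limma, 2 had an unadjusted p under 0.05 (16.2% of genes), and 2.72% of genes were called. Between 2 and 6 h, 0 members were called, 3 had an unadjusted p under 0.05 (9.20% of genes), and 0.413% of genes were called. The largest values were 0.32 ± 0.19 for CCNE2, 0.29 for CCND1 and 0.22 ± 0.08 for RFC3 at 2 h against 1 h. At 6 h against 2 h they were -0.35 ± 0.36 for CCND1, 0.34 ± 0.09 for POLA1 and 0.27 ± 0.13 for LIG1. With the replicate block, 1 member was called in each, RFC3 at 2 h (adjusted p = 0.0293) and POLA1 at 6 h (adjusted p = 0.0127), both higher than at the earlier time. The block called 17.9% and 6.78% of genes there.

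Against 1 h, 7 members were lower at 18 h in vehicle, where 3.21% of genes were called lower. An unadjusted p under 0.05 was reached by 20 members, against 17.8% of genes. The 7 called were MCM3, MCM5, MCM10, CDC6, CDT1, E2F1 and E2F2. E2F2 had 480, 416, 563 and 314 at 18 h, against 612, 682, 685 and 962 at 1 h, with no overlap, and differed by -0.72 ± 0.21 (adjusted p = 0.0293). CDC6 had 2411, 2449, 2163 and 1897 at 18 h, against 2938, 2947, 2615 and 3641 at 1 h, a difference of -0.44 ± 0.12 (adjusted p = 0.0231). MCM5 differed by -0.63, E2F1 by -0.59, CDT1 by -0.50, MCM3 by -0.41 and MCM10 by -0.34. This count rested on single arrays. It was 0 without the 1 h or the 18 h vehicle array of replicate 4, or without replicate 1, 2 or 4 as a whole, and 10 without replicate 3. It was 3 without the 1 h array of replicate 1 and 2 without the 18 h array of replicate 2. With the replicate block 16 members were lower and 3 (GINS1, ORC6 and RRM1) higher, where 12.1% of genes were called lower and 11.2% higher.

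**Figure D4:**
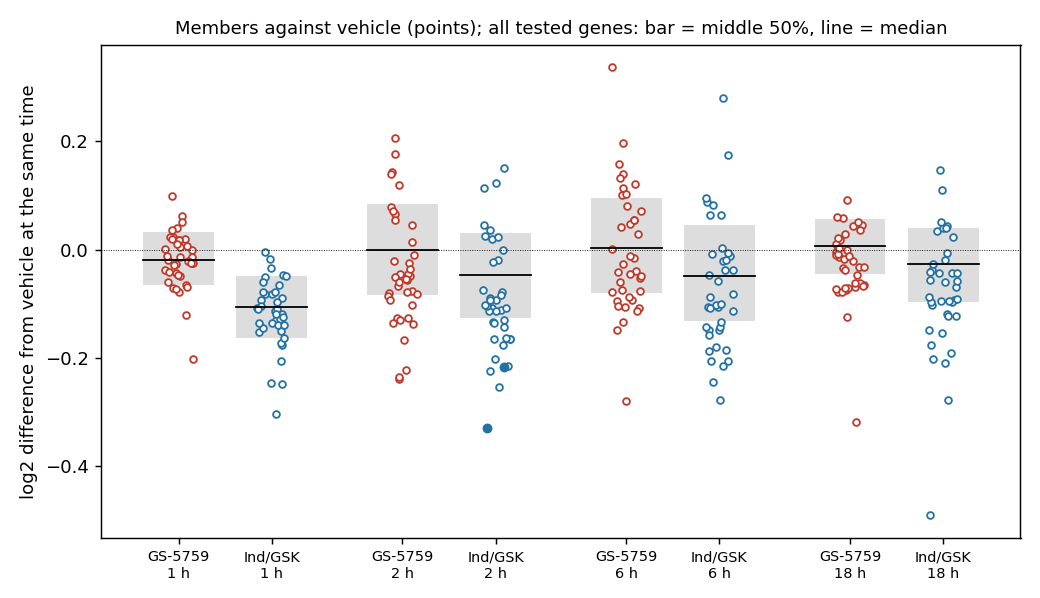
Points are the 39 members, filled where the adjusted p was under 0.05, and the vertical axis is the log2 difference from vehicle at the same time (n = 4 arrays a group). Grey bars span the middle 50% of all tested genes and the line is their median. Only 2 points are filled, both with Ind/GSK at 2 h. Some open points lie well outside the bar, such as CCND1 at -0.49 with Ind/GSK at 18 h and CCNE1 at 0.34 with GS-5759 at 6 h.

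Against vehicle at the same time, 2 of these genes were called, both with Ind/GSK at 2 h. With GS-5759, 0 members were called at 1, 2, 6 or 18 h in limma, and 0, 2, 0 and 0 had an unadjusted p under 0.05. Of all genes, 0.320%, 3.05%, 1.88% and 0% were called at those times, and 3.74%, 12.5%, 13.0% and 2.64% had such an unadjusted p. With Ind/GSK, 0 members were called at 1, 6 and 18 h, with 3, 4 and 1 at an unadjusted p under 0.05, where 2.47%, 5.01% and 0.0506% of genes were called and 19.4%, 16.9% and 5.46% had such an unadjusted p. At 2 h with Ind/GSK 2 members fell and 0 rose, where 2.81% of genes were called lower. The 2 treatments share their vehicle arrays, so their values are given side by side and not as separate support.

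CDC7 at 2 h had signals of 2155, 2424, 2199 and 2454 with GS-5759 and 2263, 1861, 2184 and 2374 with Ind/GSK, against 2462, 2736, 2952 and 2764 in vehicle. Every treated array was below every vehicle array, though with GS-5759 the nearest 2 were 2454 and 2462. In each treatment 2 members stood apart downward at 2 h. The share of all genes that did so is not given. CDC7 differed by -0.33 ± 0.09 with Ind/GSK (adjusted p = 0.018, lower in 4 of 4 replicates) and by -0.24 ± 0.09 with GS-5759 (adjusted p = 0.156, or 0.0377 with the block). At 6 h its differences were 0.11 with GS-5759 and -0.02 with Ind/GSK, and at 18 h 0.06 and -0.01. The mean response of CDC7 at 6 h minus that at 2 h was 0.33 ± 0.11 (adjusted p = 0.18, or 0.0258 with the block). In that comparison 0.708% of genes were called, and 6.66% with the block. RPA2 at 2 h had 3971, 4032, 3879 and 4450 with Ind/GSK, against 4393, 4704, 4701 and 5202 in vehicle, which overlap by 1 array on each side. RPA2 differed by -0.22 ± 0.06 with Ind/GSK (adjusted p = 0.0237) and by -0.17 with GS-5759 (adjusted p = 0.141). Both calls depended on single arrays: 0 members were called without the 2 h vehicle array of replicate 4, the 2 h Ind/GSK array of replicate 2, or replicate 2 or 3 as a whole. A single member was called without the 2 h vehicle array of replicate 3, the 2 h Ind/GSK array of replicate 1 or 3, or replicate 1 or 4 as a whole, and 3 without the 2 h vehicle array of replicate 1.

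Where none was called, the 3 largest differences are given for each time. With GS-5759 they were -0.20 for CDC25A, -0.12 for CCNE1 and 0.10 for CCNE2 at 1 h, and -0.24 for CDC7, -0.24 for CCNE1 and -0.22 for CCND1 at 2 h. At 6 h with GS-5759 they were 0.34 ± 0.19 for CCNE1, -0.28 for CCND1 and 0.20 for E2F2, and at 18 h -0.32 ± 0.36 for CCND1, -0.12 for CCNE2 and 0.09 for LIG1. With Ind/GSK they were -0.30 ± 0.14 for CDC25A, -0.25 for E2F2 and -0.25 for CCNE1 at 1 h, and 0.28 ± 0.19 for CCNE1, -0.28 for CCND1 and -0.24 for GINS2 at 6 h. At 18 h with Ind/GSK they were -0.49 ± 0.36 for CCND1, -0.28 for CCNE2 and -0.21 for UHRF1. CCNE1 at 6 h had 524, 433, 573 and 418 with GS-5759 and 504, 438, 538 and 388 with Ind/GSK, against 360, 416, 415 and 332 in vehicle. All GS-5759 arrays of CCNE1 were above all vehicle arrays, the 1 such member, where 4.28% of genes stood apart upward.

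The median member differed from vehicle by -0.02, -0.05, -0.03 and -0.02 with GS-5759 at 1, 2, 6 and 18 h, beside medians over all genes of -0.02, -0.00, 0.00 and 0.01. With Ind/GSK the member medians were -0.11, -0.11, -0.10 and -0.07, beside -0.11, -0.05, -0.05 and -0.03 over all genes. At 1 h with Ind/GSK all 39 members were below vehicle, as was most of the array, and with each array centred on its 75th percentile the member median became 0.01. With the replicate block, members called lower with Ind/GSK were CDC25A and RRM1 at 1 h (2 members), CDC7, RPA2, GINS3 and RRM1 at 2 h (4), GINS1 and RRM1 at 6 h (2), and CCND1 at 18 h (1). In that fit 22.4%, 14.6%, 22.0% and 2.56% of genes were called at those times. With GS-5759 the block called CDC7 at 2 h, where 11.1% of genes were called, and 0 members at 1, 6 and 18 h, where 1.69%, 12.9% and 0.219% were.

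GS-5759 and Ind/GSK were compared at matched times and stated concentrations, over 4 comparisons. In limma 0 members and 0 of 11865 genes were called at any time, with or without the replicate block, and 0 members had an unadjusted p under 0.05, against 5.98%, 1.64%, 3.33% and 0.346% of genes at 1, 2, 6 and 18 h. Member differences of GS-5759 minus Ind/GSK had medians of 0.10, 0.06, 0.07 and 0.05 at 1, 2, 6 and 18 h, beside 0.09, 0.05, 0.06 and 0.03 over all genes. At 1 h all 39 were positive, between 0.05 and 0.17. The largest single values were 0.17 ± 0.21 for E2F2 at 1 h, 0.12 ± 0.12 for UHRF1 at 2 h, 0.17 ± 0.14 for CDC25A at 6 h and 0.17 ± 0.36 for CCND1 at 18 h. The 95% interval of a member's difference reached 0.20 to either side at the median, and for CCND1 it ran from -0.57 to 0.91 at 18 h. These intervals bound the difference between the treatments and do not show that they act alike.

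Other genes of replication and the cycle give the setting of the late fall. Of 33 other replication genes, 8 fell and 3 rose at 18 h against 6 h with GS-5759, 6 and 4 with Ind/GSK, and 6 and 3 with vehicle, with medians of -0.05, -0.02 and -0.10. The shares of all genes called higher, 11.3%, 16.5% and 9.79%, are near those of the genes that rose here. The shares of all genes called lower were 5.84%, 5.79% and 4.36%. With the replicate block 8 fell and 6 rose with GS-5759, 8 and 7 with Ind/GSK, and 11 and 3 with vehicle. The block called 13.1%, 12.5% and 11.0% of all genes lower and 23.8%, 30.0% and 23.3% higher. Those that fell in every treatment were ORC5, another origin recognition subunit (-0.32, -0.28 and -0.41), and CHAF1A, a histone chaperone of the fork (-0.33, -0.23 and -0.44). Those that rose in every treatment were DBF4 (0.69, 0.75 and 0.59), the activating partner of CDC7, and POLE4 and POLD4, small polymerase subunits. Of 8 other nucleotide genes 1 fell in each treatment, CTPS1, the CTP synthase (-0.52, -0.46 and -0.34), and the block added 1 higher in vehicle.

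The mitotic genes went the other way. Of 24 genes of G2/M and mitosis, 24 rose with GS-5759, 24 with Ind/GSK and 23 with vehicle, with 0 lower and medians of 0.71, 0.82 and 0.54. Of all genes, 11.3%, 16.5% and 9.79% were called higher. In vehicle this list had first gone down, with medians of -0.21 at 2 h against 1 h and -0.20 at 6 h against 2 h. At 18 h against 1 h in vehicle, 2 of the 24 were called higher, with a median of 0.13, where 298 of 11865 genes were. Between 18 and 6 h, MKI67 differed by 0.88, 1.13 and 0.48. CDC20, the activator of the anaphase-promoting complex, differed by 0.56, 0.71 and 0.31, and CCNB1, the mitotic cyclin, by 0.56, 0.62 and 0.39. Among 20 genes of RB, E2F and G1 control, 2 were called higher with GS-5759, 3 with Ind/GSK and 3 with vehicle, again near the shares of all genes, and 0 lower. With the block 3, 3 and 6 were called higher, and in vehicle 3 lower (TFDP1, CCND3 and CDK4). CCNA2 differed by 0.47, 0.42 and 0.59 and CKS1B by 0.40, 0.44 and 0.37. Of 6 CDK inhibitors, CDKN2B (0.76, 0.72 and 0.80) and CDKN2D (0.95, 1.08 and 0.63) rose in every treatment, and the block called 2, 2 and 4 higher. CDKN1A, the p21 inhibitor, differed by -0.42 with GS-5759, -0.46 with Ind/GSK and -0.20 with vehicle and was not called (adjusted p = 0.193, 0.115 and 0.615), though it was with the block (adjusted p = 2.94e-06, 3.7e-07 and 0.016).

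**Figure D5:**
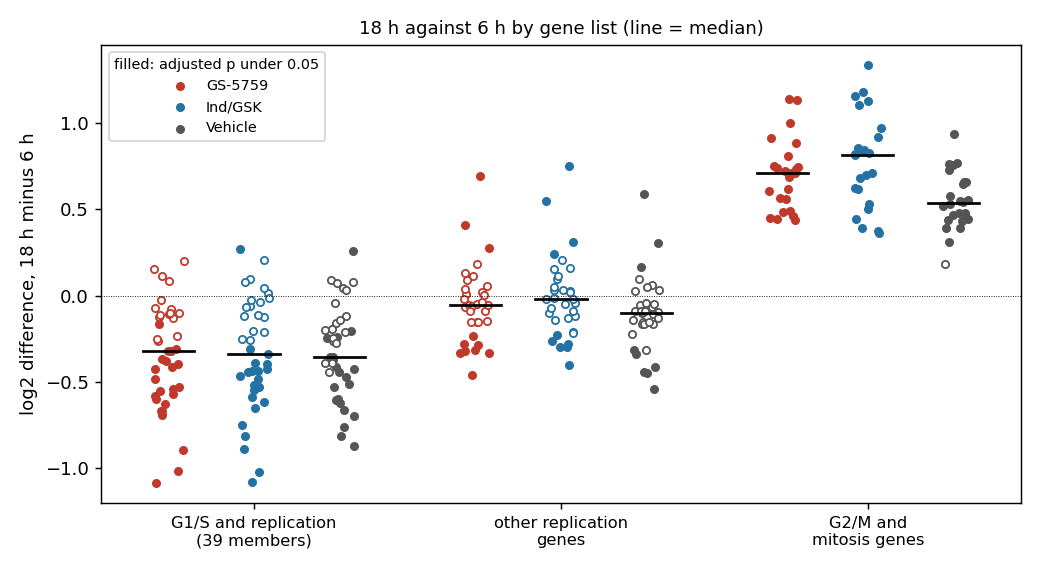
Each point is a gene, the vertical axis is its log2 difference of 18 h minus 6 h, filled points passed an adjusted p of 0.05 and lines are medians. The medians of the 39 G1/S and replication genes lie between -0.36 and -0.32, those of the other replication genes between -0.10 and -0.02, and those of the G2/M and mitosis genes between 0.54 and 0.82.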

How the data were processed

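The deposited values are linear intensities; per the submitters' processing notes the authors used PLIER and Affymetrix Expression Console, with no version stated. Per the labels' protocols, biotinylated cRNA was made from RNeasy total RNA. Of 54675 probe sets, 62 are controls, 11721 have no symbol in the annotation used, 41091 have 1 and 1801 have several. Symbols were updated through the gene identifier for 41037. Here each intensity became log2(signal + 16), and the brightest probe set with a single symbol stood for its gene. A gene was tested if its mean exceeded the 40th percentile of gene means, log2 7.41 or an intensity of 154. limma 3.58.1 in R 4.3.3 fitted 12 group means over 48 arrays with lmFit and eBayes (36 residual degrees of freedom), and p-values were Benjamini-Hochberg adjusted over 11865 genes within each comparison. Figures used matplotlib 3.10.9. The number of arrays limits the precision, and the intensities carry no read depth.

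The members and lists were chosen with earlier results of these data known. The comparisons of 18 h with 6 h within each drug treatment were added after the data were seen. Named with values were the called members, up to 15 in each direction by size, with those beyond 15 named in addition; where none was called, the 3 largest differences were named. Per-array values are given for members singled out by role, for the groups compared. The main fit has no replicate block. Same-numbered arrays deviated together from their group means, with correlations of 0.300 to 0.946 in the 72 same-numbered pairs of arrays examined. The highest correlation between different numbers was 0.767. In 64 of the 72 pairs the same number correlated best. In the rest another number did, as for replicate 2 of Ind/GSK at 18 h against 6 h (0.653 with its own number, 0.764 with another). The numbers were therefore taken to pair the samples, though not equally clearly for every pair. Blocked values stand beside the calls and counts of members and lists that they change. The procedure was tested on simulated data with independent noise on each array and no replicate effect. That test therefore cannot bear on the difference between fits with and without the block. Alternatives tried were other pseudocounts, 75th percentile centring, quantile normalization, no filter and another filter, the mean over probe sets, a mean-variance trend, the replicate block, and leaving out arrays or replicates.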

Additional observations from a re-analysis of the deposited data

Results flagged for a closer look

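Each of the 12 groups was examined for 16 members and for the median of all members, 204 sets of 4 arrays in all. In 5 of them a single array lay far outside the other 3 by Dixon's criterion, which chance meets in about 1 of 20 groups. These 5 of 204 are fewer than that rate gives, so they are listed as values and not as faulty arrays. MCM2 in vehicle at 18 h had 4060 in replicate 4, against 5456 to 5748 in the others. E2F2 in vehicle at 6 h had 696 in replicate 1, against 798 to 805. CDK2 with GS-5759 at 18 h had 4249 in replicate 3, against 4726 to 4766. UHRF1 in vehicle at 2 h had 4314 in replicate 1, against 5017 to 5106. E2F1 with GS-5759 at 1 h had 1828 in replicate 4, against 1267 to 1345. In 4 of these the array was the lowest of its group, and for E2F1 it was the highest.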

How the results depend on the processing

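The calls of members at 18 h against 6 h kept their direction in every setting and leave-out run. Under the 9 other settings, 19 of the 23 members called with GS-5759, 18 of 22 with Ind/GSK and 17 of 21 with vehicle were called each time; with each array left out in turn, 15, 16 and 12 were. Left-out single arrays gave 15 to 25 called members with GS-5759, 16 to 22 with Ind/GSK and 12 to 22 with vehicle, and left-out replicate numbers 14 to 22, 16 to 23 and 11 to 23. Vehicle at 18 h against 1 h ranged from 0 to 9 and 0 to 10, was 4 with no filter and 19 with the replicate block, where the fit without it gave 7; fewer samples or more genes tested enter these fits. Ind/GSK against vehicle at 2 h ranged from 0 to 3 with an array left out and 0 to 1 with a replicate number left out, and at 6 h from 0 to 1 with a replicate number left out. The replicate block gave 2 called members for Ind/GSK at 1 h, 4 at 2 h, 2 at 6 h and 1 at 18 h, 1 for GS-5759 at 2 h, 1 for the mean response at 6 h minus 2 h, 1 for vehicle at 2 h against 1 h and 1 at 6 h against 2 h. Apart from the calls given with the block beside their results, the pairing changed no other call of a named member. Centring on the 75th percentile gave 2 called members for GS-5759 at 2 h and 4 for vehicle at 2 h against 1 h; quantile normalization gave 1 for GS-5759 at 2 h, 1 for the mean response at 6 h minus 2 h and 1 for vehicle at 2 h against 1 h. The cause was not tested. Shares of all genes called are not given for the leave-out fits, no filter, centring or quantile normalization, so those counts stand without a background share. Uncalled values that changed sign were few. With the mean over probe sets, CCNE1, Ind/GSK vs vehicle 1 h was 0.0025 and CCNE1, GS-5759 vs vehicle 1 h was 0.010. With 1 array left out, CCND1, GS-5759 vs vehicle 6 h ran from -0.55 to 0.0295, CCNE2, GS-5759 vs vehicle 18 h from -0.26 to 0.0525, CCND1, GS-5759 vs Ind/GSK 1 h from -0.0223 to 0.35 and CCND1, GS-5759 vs Ind/GSK 18 h from -0.15 to 0.45. CCNE1 has the lowest mean signal of the members, so values near background limit it first.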
